A study of Mus musculus with 6 samples.

Results

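The enzymes that make acetyl-CoA outside the main oxidation routes, turn it into malonyl-CoA, remove malonyl-CoA or hold acetyl units as carnitine esters were examined in the left ventricle of mice with and without MURC. MURC is the product of Cavin4 and belongs to the caveolae of muscle cells. The genes were Acss1, Acss2, Acss3, Acly, Acaca, Acacb, Mlycd and Crat. They were found by their symbol, as the 9 probe sets to which the platform annotation gave only that symbol. Acaca had 2 of them and each other gene had 1, so all 8 of 8 genes were measured, among 19938 genes named in the same way. Acss1 was selected on its lower signal in the knockout in these same arrays, and its values are therefore given as a description without a test.

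Total RNA from the left ventricle of male C57BL/6 mice was hybridised to 6 Affymetrix arrays. The MURC knockout group had 3 arrays, from mice aged 11, 11 and 13 weeks for replicates 1, 2 and 3. The wild-type group had 3 arrays, from mice aged 13, 13 and 12 weeks. The labels give no treatment, and they state neither the knockout allele nor whether the gene was removed in muscle alone. Whether each array had an animal of its own is not said. The ages differ within each group, so the arrays of a group did not all come from the same animal. The p-values cover the variation between these 6 samples alone, and part of it may be technical.

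Acetyl-CoA is the unit that the citric acid cycle oxidises, that fatty acid synthesis extends and that acetyltransferases attach to proteins. Because the coenzyme does not cross the inner mitochondrial membrane, mitochondria and cytosol have separate enzymes to supply it. In heart muscle, malonyl-CoA acts mainly as a brake on fatty acid oxidation, since it inhibits the carnitine palmitoyltransferase that admits long-chain fatty acids to mitochondria. Acetyl-CoA carboxylase makes malonyl-CoA and malonyl-CoA decarboxylase removes it.

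The promoters of Acss1 and Acss2 are shown because Acss1 was selected on its lower signal in the knockout and Acss2 encodes the cytosolic counterpart of the same mitochondrial enzyme. Both are the 250 bases before the annotated start in RefSeq, in build GRCm38.p6, printed 5′ to 3′ along the gene. Capitals mark GC boxes, the letters GGGCGG on either strand. The Acss1 sequence lies at chr2:150668241-150668490 on the minus strand and the Acss2 sequence at chr2:155517793-155518042 on the plus strand.
Acss1: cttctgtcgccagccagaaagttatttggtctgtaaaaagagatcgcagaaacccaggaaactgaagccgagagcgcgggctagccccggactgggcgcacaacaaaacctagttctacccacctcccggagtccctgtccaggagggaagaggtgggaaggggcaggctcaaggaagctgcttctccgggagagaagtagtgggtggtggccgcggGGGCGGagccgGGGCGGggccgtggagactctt
Acss2: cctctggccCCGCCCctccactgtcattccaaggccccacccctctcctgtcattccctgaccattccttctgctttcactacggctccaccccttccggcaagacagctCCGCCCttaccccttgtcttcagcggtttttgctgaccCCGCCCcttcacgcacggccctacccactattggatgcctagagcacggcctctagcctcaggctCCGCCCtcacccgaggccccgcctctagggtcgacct

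The Acss1 window held 2 GC boxes close to its 3′ end and the Acss2 window held 4 spread along its length. Of 32851 windows of this length in the same table, 32.7% held at least 1. The sequences were 61.6% and 64.0% G or C, against a median of 52.4% over all windows. The CCAAT box, CCAAT, was found once in Acss2 and not in Acss1, and 33.8% of all windows held it. Neither window held the E-box CACGTG (6.02% of windows), the sterol regulatory letters TCACNCCAC (1.05%) or the ERR element TCAAGGTCA (0.387%), searched on both strands. These 5 motifs do not contain one another. Promoters of 6 of the 8 genes were in the table, and the other 4 held none of these last 3 motifs either. These matches describe letters and are not binding sites.

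The arrays had medians between 4.60 and 4.71 on the log2 scale and correlations between 0.985 and 0.989. Cavin4 itself measured 5.38 to 5.74 in knockout arrays against 8.07 to 8.75 in wild-type arrays, so each array followed its label. The heart muscle gene Myh6 measured 12.70 to 12.72 in all arrays. Knockout replicate 2 stood apart in genes of the atrium: Myl4 measured 8.67 there against 5.41 to 5.61 in the others, and Myl7 measured 7.22 against 3.61 to 4.11. The differences of the members and the count of list genes are therefore also given without that array.

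Acss1 encodes the mitochondrial acetyl-CoA synthetase, which joins acetate to coenzyme A inside mitochondria. Knockout replicates 1, 2 and 3 measured 9.91, 10.07 and 9.75 as log2 signals, and wild-type replicates 1, 2 and 3 measured 10.51, 10.59 and 10.54. All knockout arrays lay below all wild-type arrays, and the wild-type arrays lay closer together than the knockout arrays. The means were 9.91 ± 0.16 and 10.55 ± 0.04 (SD, n = 3), a log2 difference of -0.64 (SE 0.08), which puts the knockout signal at 64.3% of the wild type. Without knockout replicate 2 the difference was -0.72. The lowest knockout array was the 13-week-old one, at 9.75, and the wild-type arrays of the same age measured 10.51 and 10.59. In whole tissue, fewer cells of a type and less RNA per cell cannot be told apart.

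**Figure D1:**
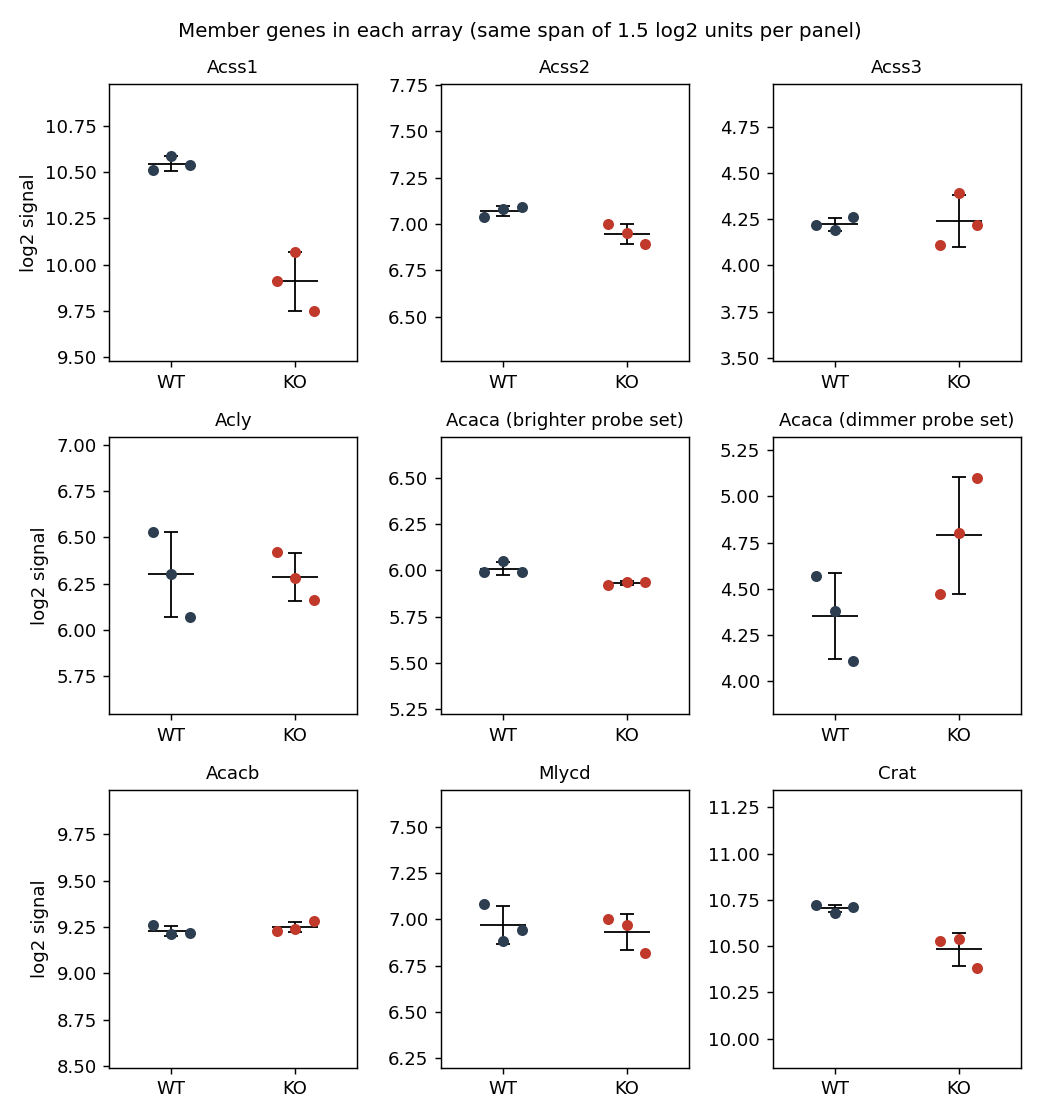
Log2 signal of each of the 9 probe sets in the 3 wild-type (WT) and 3 knockout (KO) arrays, with replicates 1 to 3 from left to right, the mean as a horizontal line and the SD as a bar. Every panel spans the same range of log2 units, and Acss1 shows the widest gap between genotypes, followed among probe sets without overlap by Crat, Acss2 and the brighter Acaca probe set.

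Acss1 has 2 relatives among the members. Acss2, the enzyme of the cytosol and nucleus, measured 7.0, 6.95 and 6.89 in knockout arrays against 7.04, 7.08 and 7.09 in wild-type arrays. The genotypes did not overlap, but the arrays lay within a narrow range. The log2 difference was -0.12 (SE 0.07, 95% interval -0.28 to 0.03, limma adjusted p = 0.472). Acss3, a mitochondrial synthetase known for its activity with propionate, was dim and measured 4.11, 4.39 and 4.22 against 4.22, 4.19 and 4.26. Its difference was 0.02 (95% interval -0.25 to 0.28, limma adjusted p = 0.965), so its interval allowed changes in either direction.

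Acly, ATP citrate lyase, makes acetyl-CoA in the cytosol from citrate that mitochondria export. It measured 6.42, 6.28 and 6.16 without MURC and 6.53, 6.30 and 6.07 with it. The genotypes overlapped over their whole knockout range, and the wild-type SD of 0.23 was the widest among the representative probe sets of the 8 genes. The log2 difference was -0.01 (95% interval -0.32 to 0.29, limma adjusted p = 0.976).

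Crat encodes carnitine acetyltransferase, which moves acetyl groups between coenzyme A and carnitine and so buffers the mitochondrial pool. It measured 10.53, 10.54 and 10.38 in knockout arrays against 10.72, 10.68 and 10.71 in wild-type arrays. All knockout arrays again lay below all wild-type arrays, with the 13-week-old knockout array lowest. The log2 difference was -0.22 (SE 0.06, 95% interval -0.36 to -0.08), a signal at 85.9% of the wild type. It did not pass over all probe sets (limma adjusted p = 0.186, unadjusted p = 0.00713), and across the alternative settings the adjusted p ran from 0.111 to 0.389. Without knockout replicate 2 the difference was -0.25.

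The acetyl-CoA carboxylases make malonyl-CoA. Acacb, the form at the mitochondrial outer membrane that predominates in heart and skeletal muscle, measured 9.23, 9.24 and 9.28 in knockout arrays against 9.26, 9.21 and 9.22 in wild-type arrays. Its difference was 0.02 with the narrowest interval among the tested members (95% interval -0.10 to 0.14, limma adjusted p = 0.906). Mlycd, the decarboxylase that removes malonyl-CoA, measured 7.0, 6.97 and 6.82 against 7.08, 6.88 and 6.94. Its difference was -0.04 (95% interval -0.24 to 0.16, limma adjusted p = 0.894), and the genotypes overlapped.

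Acaca, the cytosolic carboxylase of fatty acid synthesis, gave a different picture in each of its 2 probe sets. The brighter measured 5.92, 5.94 and 5.94 in knockout arrays against 5.99, 6.05 and 5.99 in wild-type arrays, a log2 difference of -0.08 without overlap (95% interval -0.24 to 0.09, limma adjusted p = 0.705). The dimmer measured 4.47, 4.80 and 5.10 against 4.57, 4.38 and 4.11, a difference of 0.44 in the other direction with overlap (95% interval -0.0014 to 0.87, adjusted p = 0.366). The direction for Acaca therefore depended on the probe set.

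**Figure D2:**
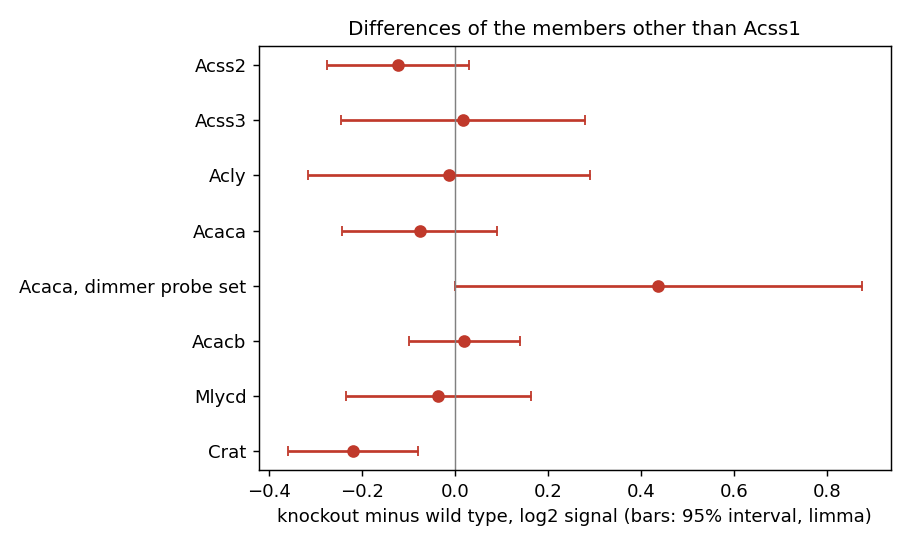
Knockout minus wild type in log2 signal for the 8 probe sets of the 7 members other than Acss1, with 95% intervals from limma. Crat is the only one whose interval, from -0.36 to -0.08, leaves out 0.

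Among the 7 members other than Acss1, represented by their brightest probe set, 5 lay below the wild type and 2 above, with a median log2 difference of -0.04. The median over all 24898 probe sets tested was also -0.04, and 59.0% of them lay below the wild type. After quantile normalization Acly and Mlycd changed sign, and after median centring Acly did. Without knockout replicate 2, Acss3 changed sign to -0.06, and Acss2, Acly, Acaca, Acacb and Mlycd measured -0.125, -0.01, -0.08, 0.025 and -0.06. All 8 genes passed the filter on dim probe sets. None of the 7 passed in limma after adjustment over all probe sets, where 0.00402% were called, and 1, Crat, had an unadjusted p under 0.05, where 13.7% of all did. That share of the members is close to the background. The arrays did not overlap at 3 of the 7, Acss2, the brighter Acaca probe set and Crat, all lower. Of all probe sets 19.0% did not overlap, namely 12.9% lower and 6.12% higher in the knockout. The knockout array with the lowest value was replicate 3 for 5 of the 8 genes, replicate 1 for 3 and replicate 2 for 0.

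Differences between members within an array do not depend on the scaling of that array by a constant. Acacb minus Mlycd, the maker against the remover of malonyl-CoA, measured 2.23, 2.27 and 2.46 in knockout arrays against 2.18, 2.33 and 2.28 in wild-type arrays. The knockout mean was 0.06 higher on the log2 scale (exact permutation p = 0.7). Acaca minus Acacb, with the brighter Acaca probe set, measured -3.31, -3.30 and -3.34 against -3.27, -3.16 and -3.23. The shift was -0.10 with no overlap (exact permutation p = 0.1, the smallest that 3 against 3 arrays can give, and 0.3 adjusted over the 3 differences). With the mean of the Acaca probe sets the shift was 0.16, in the other direction. Acss2 minus Acly shifted by -0.11 (exact permutation p = 0.6). These tests were two-sided, and none could have reached 0.05 with this number of arrays.

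The genes whose pattern over the 6 arrays was most like that of Acss1, by Pearson correlation among 14552 genes, were Abhd4, Rpn1, Pomt1, Pnrc1 and Gatc. The correlations were 0.998, 0.997, 0.996, 0.996 and 0.994, and they are descriptions over arrays that share a genotype and a scaling. Abhd4, a lysophospholipase, differed by -0.50 between genotypes. Pomt1, an O-mannosyltransferase, differed by -0.46, Pnrc1, a nuclear receptor coactivator, by -0.34, and Gatc, an amidotransferase subunit of mitochondrial translation, by -0.63. Rpn1, a subunit of the oligosaccharyltransferase, differed by only -0.07. They were chosen for their likeness in these arrays, so the pattern that they share with Acss1 follows from the choice. Among the members, Crat correlated at 0.96 and ranked at 150 of the 14552 genes. Acss2 correlated at 0.91, Acaca at 0.87, Mlycd at 0.31, Acly at 0.08, Acss3 at 0.06 and Acacb at -0.58. These values include the genotype gap on which Acss1 was selected. For deviations from the genotype means they were 0.79 for Crat, 0.55 for Acss2, 0.22 for Acaca, 0.35 for Mlycd, 0.14 for Acly, 0.53 for Acss3 and -0.67 for Acacb.

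**Figure D3:**
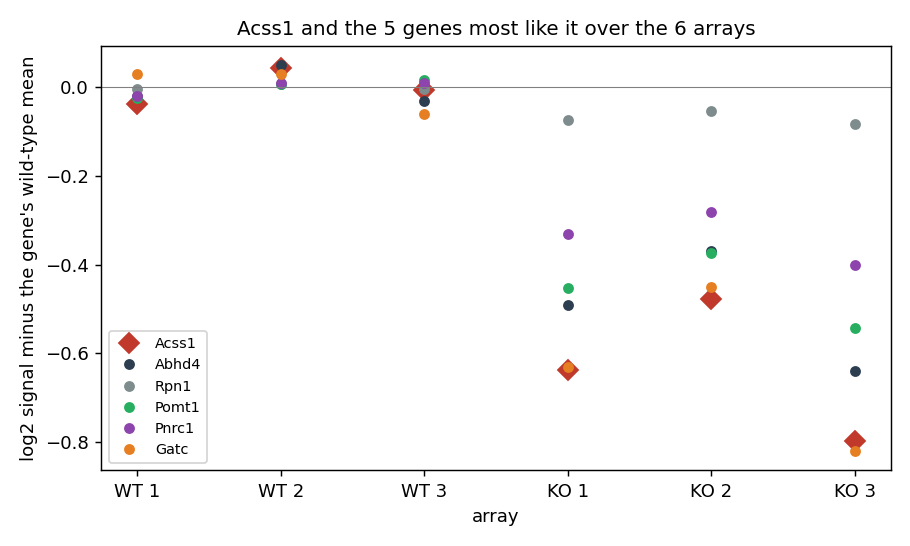
Log2 signal minus the gene's own wild-type mean in each of the 6 arrays for Acss1 (diamonds) and the 5 genes with the highest correlation to it (circles). The 5 genes were chosen for this likeness, so the shared pattern follows from the choice, while the size of the gap runs from -0.07 for Rpn1 to -0.64 for Acss1.

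The genes around these pools were taken as 8 lists with 113 genes, of which 100 were tested. None passed in limma over all probe sets, 15 were lower at an unadjusted p under 0.05 and 0 were higher, where over all probe sets 9.02% were lower and 4.71% higher. With 1 probe set per gene, as in the lists, 8.97% of the 15298 genes tested were lower and 2.50% higher. These shares, and the 62.7% of all genes below the wild type, are the background for the counts of each list below. Of the 100, 70 lay below the wild type, with a median log2 difference of -0.06, against 62.7% and a median of -0.04 over the 15298 genes tested. After quantile normalization 60 of the 100 lay below, and the share of all genes was then 54.2%. Counted in either direction at an unadjusted limma p under 0.05, the list genes numbered 15 as reported. Without knockout replicate 2 there were 14, without knockout replicate 3 there were 6, and without wild-type replicate 1 there were 9. The count was at most 17 under any setting tried.

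Mitochondrial routes of acetyl units, with pyruvate dehydrogenase, its kinases and ketone body enzymes, had a median of -0.04 over 17 tested genes, and of -0.00889 after quantile normalization. Of the 17, 10 lay below the wild type, or 58.8% against 62.7% of all genes. At an unadjusted p under 0.05, 2 were lower. Acat1, the mitochondrial thiolase that splits acetoacetyl-CoA, measured 11.20, 11.26 and 11.05 against 11.50, 11.40 and 11.32, a difference of -0.24 (limma adjusted p = 0.24). Cs, citrate synthase, which joins acetyl-CoA to oxaloacetate, differed by -0.14 (adjusted p = 0.279). The kinase gene Pdk2 and the dehydrogenase component gene Pdhx differed by -0.11 and 0.11, without overlap in opposite directions.

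Among the 7 tested genes of carnitine handling, 6 lay below (85.7%, against 62.7% of all genes), and the median was -0.19. After quantile normalization 5 of the 7 lay below (71.4%, against 54.2% of all genes), and the median was -0.14. Slc25a20, the carrier that exchanges acylcarnitines for carnitine across the inner membrane, measured 9.47, 9.32 and 9.26 against 9.69, 9.77 and 9.65. Its difference was -0.35 (SE 0.07, limma adjusted p = 0.108), and it was the 1 gene of this list with an unadjusted p under 0.05. The peroxisomal acyltransferase gene Crot, the carnitine transporter gene Slc22a5 and the carnitine synthesis gene Aldh9a1 differed by -0.19, -0.20 and -0.20. Cpt1a, a form of the palmitoyltransferase that malonyl-CoA inhibits, differed by -0.02 with overlap. Cpt1b, the form that predominates in heart muscle, had no probe set named here and was not analysed.

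Genes that use or load malonyl units had a median of -0.12 over 8 genes. Of these, 5 lay below (62.5%, against 62.7% of all genes), and 2 were lower at an unadjusted p under 0.05. Elovl1, an elongase of very long fatty acids, differed by -0.19, and Oxsm, a ketoacyl synthase of mitochondrial fatty acid synthesis, by -0.32 (limma adjusted p = 0.327 and 0.346). Mcat, which loads malonyl units in that mitochondrial route, differed by -0.21, and Acsf3, which makes malonyl-CoA from malonate in mitochondria, by 0.12.

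Regulators of acetyl-CoA carboxylase had a median of -0.01 over 11 genes, of which 7 lay below. Quantile normalization left 5 below and a median of 0.02. At an unadjusted p under 0.05, 3 were lower. Prkaa2, the catalytic subunit of AMP-activated kinase that predominates in heart, measured 8.76, 8.87 and 8.65 against 9.04, 9.09 and 8.97, a difference of -0.27 (SE 0.07, limma adjusted p = 0.18). Prkab1, a regulatory subunit, and Stk11, the upstream kinase LKB1, differed by -0.27 and -0.19, and Prkaa1, the other catalytic subunit, by -0.10 with overlap.

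The SREBP and ChREBP factors drive lipid synthesis genes, among them Acly and Acaca. The list held these factors, genes that escort or retain SREBP, and other known targets, so it is not a list of targets alone. Its median was -0.09 over 18 genes, with 13 below the wild type (72.2%, against 62.7% of all genes) and 5 above. After quantile normalization the median was -0.0475. At an unadjusted p under 0.05, 3 were lower. Insig2, which retains the SREBP escort protein in the endoplasmic reticulum, measured 7.56, 7.61 and 7.45 against 7.95, 7.96 and 7.78, a difference of -0.36 (SE 0.08, limma adjusted p = 0.12). Scap, the gene of that escort protein, and the malic enzyme gene Me1 differed by -0.25 and -0.24, and the cholesterol synthesis gene Hmgcs1 by -0.13. A second Me1 probe set differed by -0.20, with overlap (limma unadjusted p = 0.134). Fdft1 differed by -0.12 with overlap, and its dimmer second probe set by -0.32 without overlap (limma unadjusted p = 0.0105). The count at an unadjusted p under 0.05 in this list therefore depended on the probe set taken.

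Genes of coenzyme A synthesis and breakdown had a median of -0.09, with 11 of 12 below the wild type, and none had an unadjusted p under 0.05. After quantile normalization 9 of 12 lay below and the median was -0.06, and 54.2% of all genes lay below. Pank1, a pantothenate kinase, which catalyses the rate-limiting step, differed by -0.19 (limma adjusted p = 0.417). Ppcs, of the next step, and the coenzyme A hydrolase genes Nudt8 and Nudt7 differed by -0.18, -0.17 and -0.18, each with overlap. Other acyl-CoA synthetases had a median of -0.04 over 11 genes, and 1, the fatty acid transport protein gene Slc27a1, was lower at an unadjusted p under 0.05, at -0.27 (adjusted p = 0.263). Acsl6, Acsf2 and Aacs, synthetases for long-chain fatty acids, medium-chain fatty acids and acetoacetate, differed by -0.13, -0.12 and -0.13, with overlap. A second Acsf2 probe set differed by -0.15, also with overlap.

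Lysine acetyltransferases and sirtuins, the enzymes that add acetyl groups to proteins and remove them or related groups, had a median of -0.04 over 16 genes, of which 11 lay below. Quantile normalization left 8 below and a median of 0.00194. At an unadjusted p under 0.05, 3 were lower, Sirt2, Sirt4 and Sirt6, and none passed after adjustment. Sirt2, which is mainly cytosolic, measured 9.05, 9.08 and 8.73 against 9.42, 9.27 and 9.38, a difference of -0.40 (SE 0.10, limma adjusted p = 0.155). Sirt4 and Sirt6 differed by -0.27 and -0.21, the acetyltransferase gene Kat5 by 0.17. Sirt3, the mitochondrial deacetylase known to activate the Acss1 protein, differed by 0.18 with overlap.

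**Figure D4:**
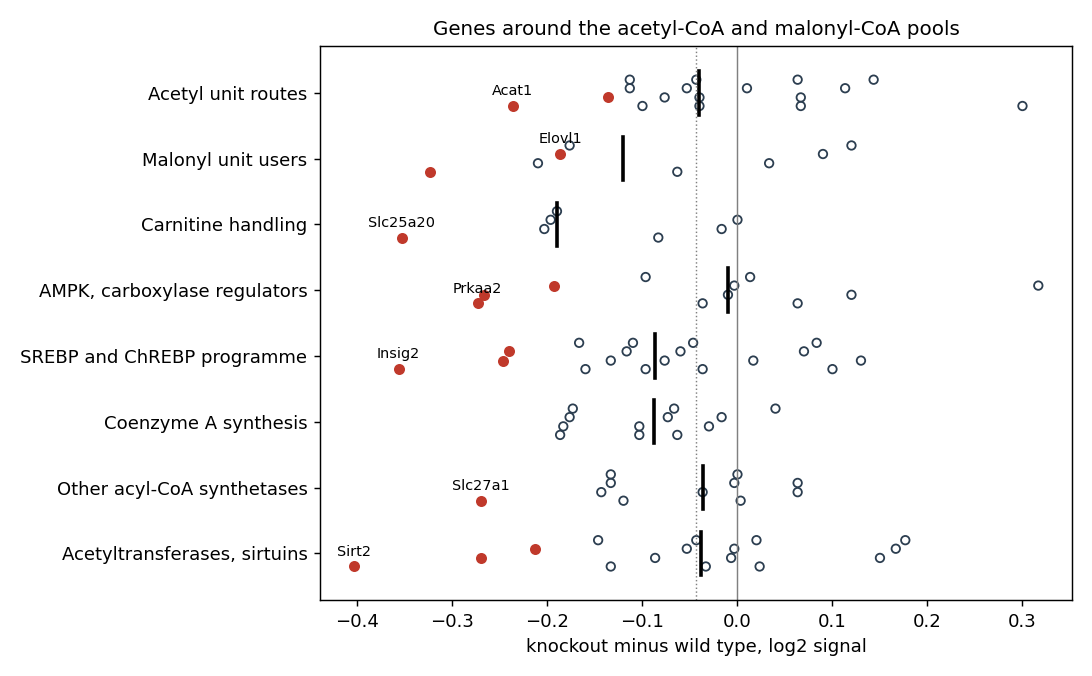
Knockout minus wild type in log2 signal for the 100 tested genes of 8 lists, each point a gene, filled where the unadjusted limma p was under 0.05, with the list median as a black bar. The dotted line is the median of all genes, -0.04, and all 15 filled points lie to its left; the gene with the smallest p is named in each list that has one.

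Markers of other cell types were compared in the same arrays. For adipocytes, which make lipid from these pools, 6 of 8 markers passed the filter. Of these 6, 3 lay below the wild type and 3 above, and 0 had an unadjusted limma p under 0.05. The mean of the 6 lay between 4.455 and 4.557 in the knockout and between 4.565 and 4.638 in the wild type. The defining marker Adipoq was under the filter value of 3.45, at 2.72 to 3.32. Smooth muscle and pericyte markers lay above the wild type at 5 of 6, with means of 7.14 to 7.21 against 6.975 to 7.07. Of these 6, 2 were higher at an unadjusted limma p under 0.05, where 2.50% of all genes were. They were Myh11, at 0.35, and Tagln, at 0.42, each without overlap. Leukocyte markers lay below at 7 of 8, with means of 6.43 to 6.66 against 6.56 to 6.91. Of these 8, 1 was lower at that threshold, C1qb at -0.51 without overlap, where 8.97% of all genes were. Heart muscle markers had means of 12.55 to 12.57 in both genotypes. Fibroblast markers lay below at 5 of 7 and skeletal muscle markers at 3 of 5, with median log2 differences of -0.02 and -0.01. Of the skeletal muscle markers 1, Ckm, was higher at that threshold, at 0.13. Endothelial markers lay above at 4 of 6, with a median of 0.06. Heart muscle, fibroblast, endothelial and atrial markers had 0 at that threshold, and no marker of any list passed after adjustment. Atrial markers, in which knockout replicate 2 stood apart, lay above at 3 of the 3 that passed the filter, from a list of 5. Sln and Bmp10 were under the filter. For Nppa, knockout replicate 2 measured 11.44, and knockout replicates 1 and 3 measured 10.78 and 10.81, within the wild-type range of 10.67 to 11.13. The part of other cell types in the differences above was not tested.

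The differences of the members were also set beside each other under every setting tried. Acss1 lay between -0.73 and -0.56 in the 16 alternatives, the first with age as a covariate and the second without knockout replicate 3. Crat lay between -0.28 and -0.17 and Acss2 between -0.16 and -0.09. Acacb stayed between 0.005 and 0.06. None of the 7 tested members passed after adjustment in any of the 16 alternatives.

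**Figure D5:**
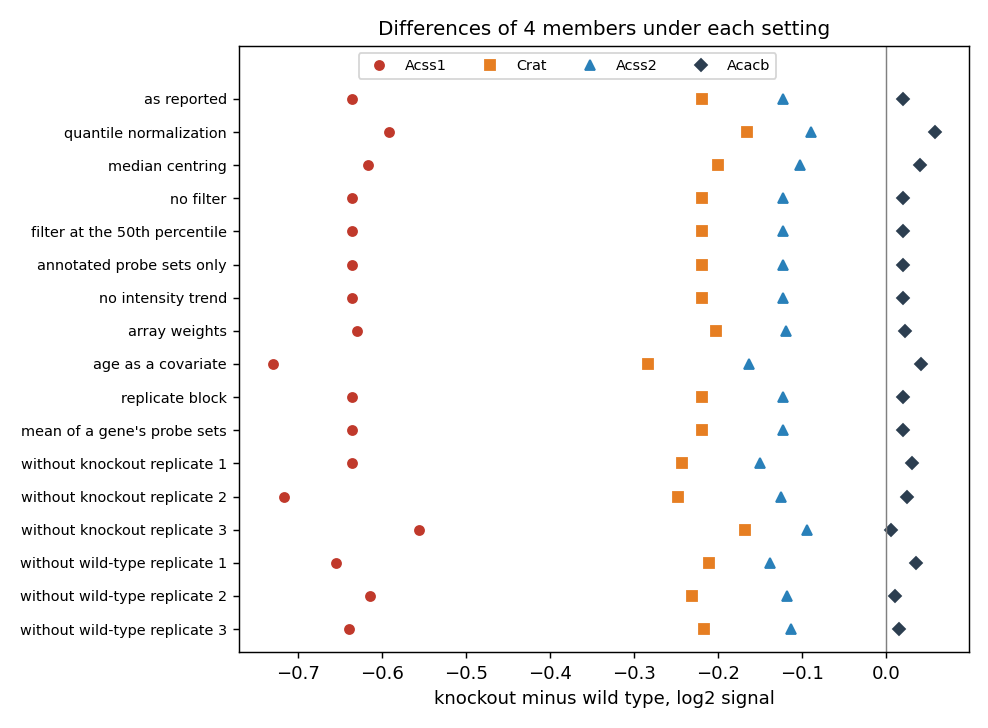
Knockout minus wild type in log2 signal for Acss1, Crat, Acss2 and Acacb as reported and under the 16 alternatives, 1 line per setting. Acss1 was selected on its difference in these arrays, so its points, between -0.73 and -0.56, are a description and not a comparison with the other 3 genes.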

How the data were processed

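The authors deposited log2 values for 35556 probe sets, with a column for each array. MAS5 is listed in the submitters' processing notes, with no role or version. The steps of summarization, background correction and scaling, like the build, were not given in the sources used here. That the scale is log2 was settled from its range of 0.46 to 13.72. RNA was extracted with TRIzol and 100 ng labelled with biotin, per the labels' protocols.

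Values were used as deposited. The annotation gave 1 symbol to 21789 probe sets, several to 1621, and did not list 12146. Symbols were updated by gene identifier from RefSeq (GRCm38.p6), with 21698 matches. A gene was represented by its probe set with the highest mean. Genotypes were compared with limma 3.58.1 in R 4.3.3 (lmFit, eBayes with trend, two-sided) over the 24898 probe sets with a mean at or above the 30th percentile (3.45), and p-values were adjusted by Benjamini-Hochberg. The fit was tested on simulated data. No array duplicated another. The number of arrays limits the precision.

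Named are all members, the 5 genes most like Acss1, and up to 4 genes per list with the smallest p. Cpt1a, Sirt3, Fdft1 and the marker genes were added after their values were seen. Of 113 list genes, 8 had no named probe set. Members and lists were chosen with earlier results of these data known.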

Additional observations from a re-analysis of the deposited data

How the results depend on the processing

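The number of probe sets passing after adjustment was 1 as reported. It was 130 after quantile normalization, 105 after median centring, 48 with the filter at the 50th percentile, 361 over annotated probe sets, 126 with array weights, 34 with age as covariate and 0 with the replicate block, and 0 to 11 when 1 array was left out. The cause was not tested. None of the 7 tested members passed in any of these settings, and Crat was the only one with an unadjusted p under 0.05 in each. Of the list genes, 2 passed over annotated probe sets, Slc25a20 (limma adjusted p = 0.0316) and Insig2 (0.0441), and the count at an unadjusted p under 0.05 ran from 6 to 17 when 1 array was left out. The lower share of calls at an unadjusted p under 0.05 was 65.7% on deposited values, 51.2% on quantile-normalized values and 50.1% without wild-type replicate 1.

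Small differences changed sign. Acly measured 0.0189 after quantile normalization, 0.00667 after median centring, 0.0291 with array weights, and from -0.13 to 0.10 when 1 array was left out. Mlycd measured 0.000833 after quantile normalization, 0.00171 with array weights, and from -0.08 to 0.02 when 1 array was left out. Acss3 measured -0.00633 with age as covariate and from -0.0583 to 0.0817 when 1 array was left out, and it was not tested with the stricter filter. Acaca measured 0.18 with the mean of its probe sets, which also turned Acaca minus Acacb to 0.16. When 1 array was left out, Acacb minus Mlycd ran from -0.0133 to 0.102, Acss2 minus Acly from -0.24 to 0.015 and Acss1 from -0.72 to -0.56.

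No pairing by replicate number was seen: same-numbered arrays had correlations of their deviations of -0.06, 0.02 and -0.06, and 2 of 6 correlated best with their own number. With so few arrays these values do not settle whether the arrays were paired. With the replicate block the difference of Crat was -0.22 with a limma adjusted p of 0.248.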
